A study of Mus musculus with 16 samples.

Results

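The MAP kinase phosphatases of the Dusp family are the subject here, chosen as the non-control probes whose gene name on the array is 1 of 10 listed symbols. Of these, 9 genes were found with 13 probes (Dusp1, Dusp2, Dusp4, Dusp6, Dusp7, Dusp8, Dusp10, Dusp14 and Dusp16), out of 18404 genes tested and 41174 non-control probes in all. All 13 probes passed the filter on dim probes, and Dusp5 was not analysed here.

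The study measured transcripts on 16 arrays of CD8 T cells, which recognise and kill infected cells, from female C57BL/6N mice aged 7 weeks. A flow cytometry sort of cells bearing CD8 and Thy1.2 gave naive cells with little surface CD44 (CD44lo) and memory phenotype cells with much of it (CD44hi), the latter defined by CD44 alone and not by a known antigen. Each kind of cell was cultured for 4 h in medium alone (naive resting, memory resting) or in medium containing both PMA (10 ng/mL) and ionomycin (500 ng/mL) (naive stimulated, memory stimulated). Each of the 4 groups had 4 arrays, and the procedure was carried out on 4 separate occasions. PMA activates protein kinase C and, through it, Ras and the MAP kinases, and ionomycin lets calcium into the cell, so that both act downstream of the T cell receptor.

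MAP kinases (ERK, JNK and p38) are switched on by phosphorylation of a threonine and a tyrosine in their activation loop. Dual-specificity phosphatases remove both phosphates and so switch the kinases off. Several of their genes are themselves transcribed in response to MAP kinase signalling, which makes them a classical negative feedback on T cell activation. The members are usually grouped by place and substrate: inducible nuclear enzymes (Dusp1, Dusp2, Dusp4 and Dusp5), cytoplasmic enzymes that prefer ERK (Dusp6 and Dusp7), enzymes that prefer JNK and p38 (Dusp8, Dusp10 and Dusp16), and the small atypical Dusp14, which lacks the kinase-binding domain of the others.

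Levels are log2 of the processed spot signal minus the array's 75th percentile, so that 0 stands for that percentile (484.6 to 669.8 intensity units) and each unit for a doubling. Between 59.1% and 66.4% of the probes on an array were well above background, and arrays of 1 group correlated at 0.9784 to 0.9953. The summed level of the 6 T cell markers was 160 to 245 in naive resting, 174 to 207 in memory resting, 105 to 146 in naive stimulated and 152 to 181 in memory stimulated cells, and 4 of the 6 fell in each response. That of Cd8a and Cd8b1 was 192 to 263, 193 to 204, 130 to 175 and 133 to 165, with both falling in naive and 1 of 2 in memory cells. Cd44 was higher in memory than in naive cells at rest by 4.05 ± 0.20 on the log2 scale (SE; adjusted p = 1.64e-09, limma). Genes listed as markers of other cells moved with the groups as well. The summed level of 8 myeloid markers was 8.22 to 14.0 in naive resting, 13.5 to 21.9 in memory resting, 1.57 to 3.13 in naive stimulated and 2.83 to 4.57 in memory stimulated cells, and 6 of the 8 fell in each response. The summed level of 4 B cell markers was 1.62 to 2.19, 1.29 to 1.56, 0.205 to 0.396 and 0.176 to 0.244 in the same order of groups, with 1 of 4 falling in the naive and 3 of 4 in the memory response. The summed level of 4 NK markers was 0.172 to 0.371, 3.38 to 7.72, 0.112 to 0.243 and 3.22 to 4.6, and Ncr1 was not well above background in either naive group. At rest 3 of the 4 were higher in memory cells, with Gzma and Klra8 the largest (5.06 and 4.73). Ncr1 was well above background on 1 of 4 memory resting arrays, and its resting difference was not called (1.42 ± 0.55, adjusted p = 0.0825, limma). The 2 tested CD4 T cell markers summed to 0.0534 to 0.102, 0.249 to 0.306, 0.0597 to 0.0735 and 0.0695 to 0.0957. Zbtb7b was higher in memory cells at rest by 3.44 ± 0.25 (adjusted p = 9.92e-08, limma), and well above background on 1 of 4 naive resting arrays. The resting difference of Cd4 itself was not called (0.29 ± 0.17, adjusted p = 0.259, limma). The 5 dendritic cell markers summed to 1.23 to 8.05, 4.41 to 8.73, 4.28 to 9.54 and 4.51 to 6.78. Of these 5, 3 were called higher and 0 lower in memory cells at rest, against 13.9% and 7.66% of all genes. After stimulation 0 were called higher and 1 lower, against 10.1% and 14.1%. Which cells carried these marker transcripts, the sorted CD8 T cells or others, was not tested, nor was the part of other cells in the results. In sorted bulk RNA, fewer cells of a type and less RNA per cell cannot be told apart. The 4 arrays of a group were on 1 slide with 1 scan, so in every comparison the slide and the group cannot be told apart.

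Over the 9 genes, PMA and ionomycin raised 5 and lowered 1 in naive cells, and raised 6 and lowered 1 in memory phenotype cells. Dusp4, Dusp2, Dusp6, Dusp14 and Dusp16 rose in both kinds of cell, Dusp8 passed the test in memory cells alone, and Dusp10 fell in both. These counts stand against a broad response: over the whole array, 38.3% of genes rose and 30.9% fell in naive cells (69.2% either way), and 31.4% rose and 39.1% fell in memory cells (70.5% either way). The median log2 change of the members was 1.16 in naive and 1.43 in memory cells, against 0.15 and -0.16 over all genes. All p-values for genes are from limma with Benjamini-Hochberg adjustment over all genes, two-sided, with 0.05 as the threshold.

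**Figure D1:**
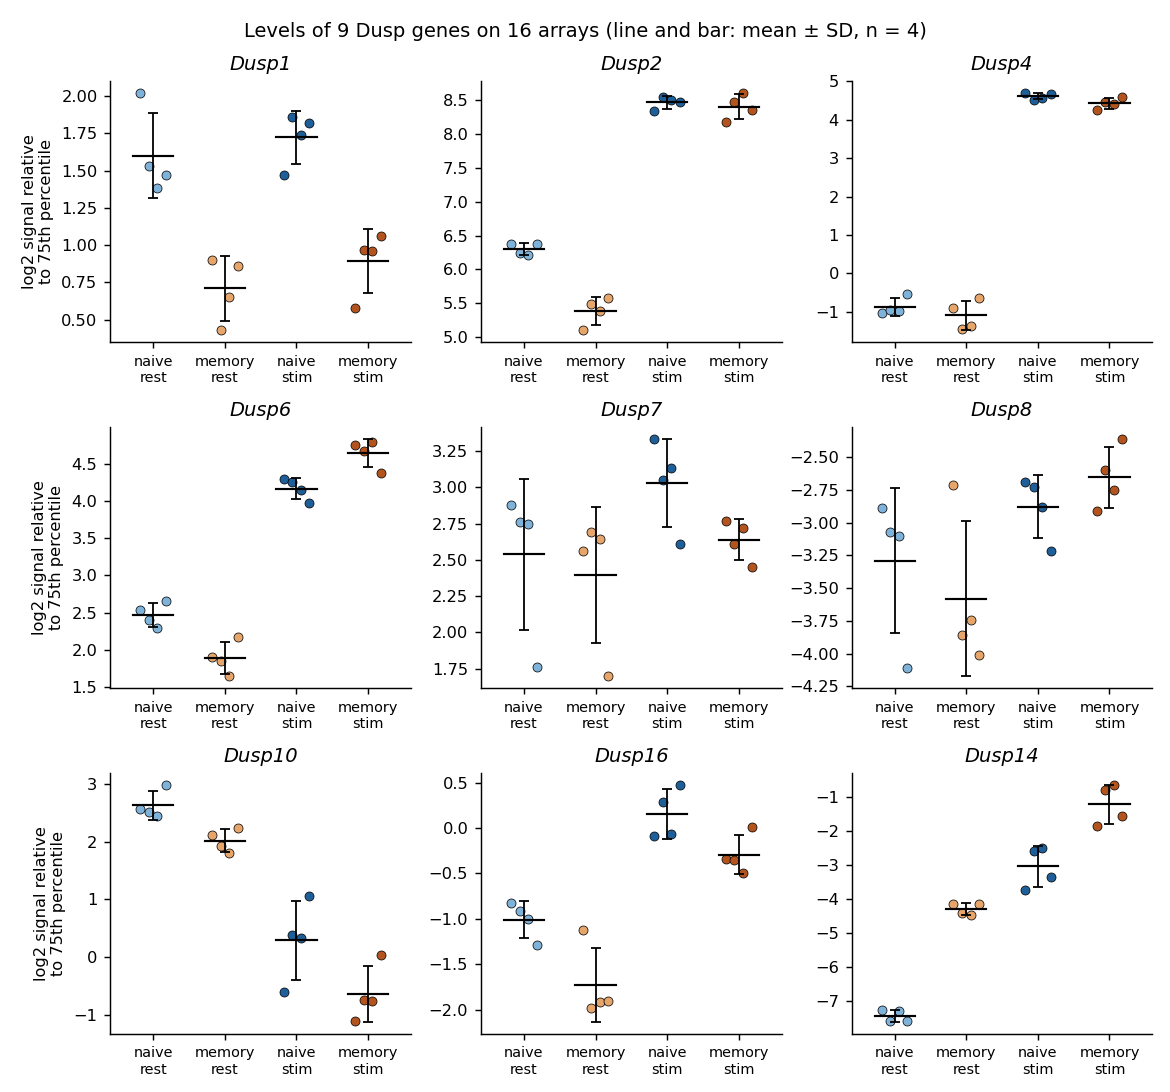
Levels of 9 Dusp genes (1 probe a gene) as log2 signal (0 is the 75th percentile of the array), by group (naive or memory phenotype cells, resting or stimulated). Points are arrays, and line and bar are mean ± SD (n = 4). The 8 stimulated arrays lie above the 8 resting arrays for Dusp2, Dusp4, Dusp6, Dusp14 and Dusp16 and below them for Dusp10, while Dusp1 separates by kind of cell. The naive resting level of Dusp14 was not well above background.

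**Figure D2:**
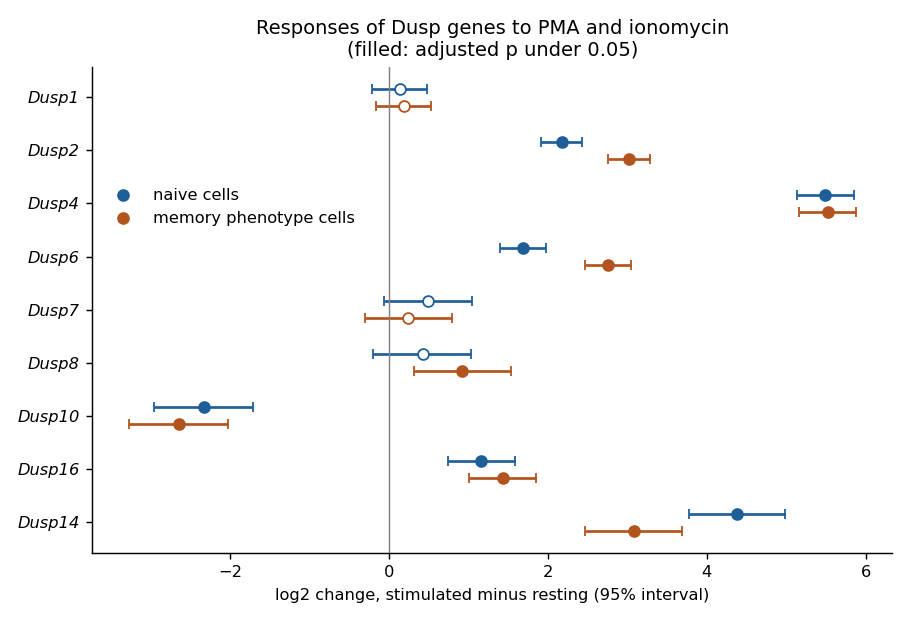
Log2 change between stimulated and resting cells for 9 Dusp genes, with the 95% interval of the fit over 16 arrays, in naive and memory phenotype cells. Filled points passed an adjusted p of 0.05. Dusp4 lies at 5.49 and 5.52 and Dusp10 at -2.33 and -2.65. The naive value of Dusp14 is a fitted value against a group below background, and the data support a rise of at least 6.11-fold.

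Of the inducible nuclear enzymes, Dusp4, which acts on ERK and JNK in the nucleus, had the largest change. Its probe lies at 33583106 to 33583165 on chromosome 8 (mouse build mm7, plus strand, as the files give it). Its level was -1.03, -0.95, -0.97 and -0.53 on the naive resting arrays and 4.70, 4.53, 4.57 and 4.68 on the naive stimulated arrays. In memory cells it was -0.89, -1.45, -1.38 and -0.65 at rest and 4.25, 4.46, 4.42 and 4.59 after stimulation. Low and high arrays thus split by stimulation with no overlap, while naive and memory arrays overlapped both at rest and after stimulation. The rise was 5.49 ± 0.17 on the log2 scale in naive cells (45.0-fold, adjusted p = 7.92e-13) and 5.52 ± 0.17 in memory cells (46.0-fold, adjusted p = 8.7e-13). Memory and naive cells differed by -0.22 at rest (95% interval -0.58 to 0.14, adjusted p = 0.386) and by -0.19 after stimulation (-0.55 to 0.17, adjusted p = 0.447). The difference of the responses was 0.03 (95% interval -0.48 to 0.54, adjusted p = 0.947).

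A second Dusp4 probe, at 33580345 to 33580404 on chromosome 8, moved the same way. It rose by 5.0 ± 0.27 in naive cells (adjusted p = 2.54e-10) and by 5.47 ± 0.27 in memory cells (adjusted p = 9.12e-11), and neither difference between the kinds of cell passed the test.

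Dusp2, a nuclear phosphatase first found as a gene of activated T cells, responded in both kinds of cell and further in memory cells, from a lower start. Its probe lies at 127079047 to 127079106 on chromosome 2 (mm7, plus strand). The resting level was 6.37, 6.24, 6.21 and 6.38 on the naive arrays and 5.10, 5.49, 5.39 and 5.58 on the memory arrays. After stimulation it was 8.34, 8.55, 8.51 and 8.48 in naive and 8.18, 8.48, 8.61 and 8.35 in memory cells. All memory resting arrays lay below all naive resting arrays, and the stimulated arrays of the 2 kinds of cell overlapped. Dusp2 rose by 2.17 ± 0.12 in naive cells (4.49-fold, adjusted p = 3.97e-10) and by 3.02 ± 0.12 in memory cells (8.11-fold, adjusted p = 1.24e-11). It was lower in memory cells at rest by 0.91 ± 0.12 (fold 1.88, adjusted p = 6.29e-05), and the difference after stimulation was -0.06 (95% interval -0.32 to 0.20, adjusted p = 0.757). The memory response exceeded the naive response by 0.85 ± 0.17 (adjusted p = 0.00265).

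Dusp1, a nuclear phosphatase known as an immediate early gene, did not pass the test for either response at 4 h. Its probe lies at 24690398 to 24690455 on chromosome 17 (mm7, minus strand). In naive cells its level was 2.02, 1.53, 1.38 and 1.47 at rest and 1.47, 1.86, 1.74 and 1.82 after stimulation. In memory cells it was 0.90, 0.43, 0.65 and 0.86 at rest and 0.58, 0.97, 0.96 and 1.06 after stimulation. Every memory array lay below every naive array in both conditions, whereas resting and stimulated arrays of 1 kind of cell overlapped. The change was 0.13 in naive cells (95% interval -0.22 to 0.47, adjusted p = 0.506) and 0.18 in memory cells (-0.17 to 0.53, adjusted p = 0.329). The sign of the naive change turned under other scalings (-0.02 with quantile normalization, -0.10 in the authors' table). Dusp1 was lower in memory cells by 0.89 ± 0.16 at rest (adjusted p = 0.00109) and by 0.83 ± 0.16 after stimulation (adjusted p = 0.00172).

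Of the cytoplasmic ERK phosphatases, Dusp6 rose in both kinds of cell, and Dusp7 passed the test in neither response of the reported fit. Dusp6, a feedback inhibitor of ERK, is probed at 98828759 to 98828818 on chromosome 10 (mm7, plus strand). At rest its level was 2.54, 2.40, 2.29 and 2.66 on the naive arrays and 1.90, 1.85, 1.65 and 2.17 on the memory arrays. After stimulation it was 4.29, 4.25, 4.14 and 3.97 in naive and 4.75, 4.67, 4.79 and 4.37 in memory cells. Memory cells were thus the lower group at rest and the higher group after stimulation, without overlap in either condition. Dusp6 rose by 1.69 ± 0.14 in naive cells (3.23-fold, adjusted p = 2.48e-08) and by 2.75 ± 0.14 in memory cells (6.74-fold, adjusted p = 1.05e-10). It was lower in memory cells at rest by 0.58 ± 0.14 (adjusted p = 0.00672) and higher after stimulation by 0.48 ± 0.14 (adjusted p = 0.0184). The responses differed by 1.06 ± 0.19 (adjusted p = 0.00126). The difference after stimulation missed the threshold without naive stimulated replicate 4 (0.41, adjusted p = 0.0609), memory stimulated replicate 1 (0.44, adjusted p = 0.0539) or memory stimulated replicate 3 (0.43, adjusted p = 0.0529).

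Dusp7, the other cytoplasmic ERK phosphatase, is probed at 106104814 to 106104873 on chromosome 9 (mm7, plus strand). In naive cells its level was 2.88, 2.76, 2.75 and 1.76 at rest and 3.33, 3.05, 3.13 and 2.61 after stimulation. In memory cells it was 2.56, 2.69, 2.64 and 1.70 at rest and 2.77, 2.61, 2.72 and 2.45 after stimulation. Replicate 4 was the lowest array of each group, and all 4 groups overlapped at least 1 other. The naive change was 0.49 (95% interval -0.06 to 1.04, adjusted p = 0.105) and the memory change 0.24 (-0.31 to 0.79, adjusted p = 0.419). A fit that takes arrays of the same replicate number together called the naive change and is given in the closing section on processing. The sign of the memory change turned with quantile normalization (-0.13) and in the authors' table (-0.12).

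The 3 enzymes that prefer JNK and p38 did not move together: Dusp10 fell, Dusp16 rose and Dusp8 passed the test in memory cells alone. Dusp10, which dampens JNK and p38 and is known to restrain T cell effector function, is probed at 183600757 to 183600816 on chromosome 1 (mm7, plus strand). Its level was 2.57, 2.51, 2.44 and 2.99 on naive resting and -0.60, 0.39, 0.33 and 1.06 on naive stimulated arrays. On memory arrays it was 2.11, 1.92, 1.80 and 2.24 at rest and -1.10, -0.74, -0.75 and 0.04 after stimulation. Every stimulated array lay below every resting array, and stimulated arrays were more spread out. The log2 change was -2.33 ± 0.29 in naive cells (5.03-fold lower, adjusted p = 3.7e-06) and -2.65 ± 0.29 in memory cells (6.28-fold lower, adjusted p = 8.88e-07).

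All 4 memory resting arrays of Dusp10 lay below the naive resting arrays, but the difference of -0.61 missed the threshold (95% interval -1.24 to 0.01, adjusted p = 0.154). It passed when only the 8 resting arrays were fitted (adjusted p = 0.0325), and in the fit by replicate number given in the closing section on processing. After stimulation the difference was -0.93 ± 0.29 (adjusted p = 0.0308), with overlapping arrays. That call was lost when naive stimulated replicate 2, 3 or 4 or memory stimulated replicate 1, 2 or 3 was left out (-0.92 to -0.68, adjusted p from 0.0651 to 0.102), and when only the 8 stimulated arrays were fitted (adjusted p = 0.0936).

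Dusp16, a phosphatase that shuttles between nucleus and cytoplasm and prefers JNK, is represented by the brightest of its 3 probes, at 134751853 to 134751912 on chromosome 6 (mm7, minus strand). On naive arrays its level was -0.83, -0.91, -1.0 and -1.29 at rest and -0.09, 0.29, -0.06 and 0.48 after stimulation. On memory arrays it was -1.12, -1.98, -1.91 and -1.90 at rest and -0.34, -0.35, -0.50 and 0.01 after stimulation. Stimulated arrays lay above resting arrays of the same kind of cell without overlap, and memory resting replicate 1 lay among the naive resting arrays. Dusp16 rose by 1.16 ± 0.20 in naive cells (2.24-fold, adjusted p = 8e-05) and by 1.43 ± 0.20 in memory cells (2.7-fold, adjusted p = 9.59e-06). It was lower in memory cells at rest by 0.72 ± 0.20 (adjusted p = 0.0165), which fell below the threshold without memory resting replicate 2 (adjusted p = 0.0527), with the mean of its probes (-0.23, adjusted p = 0.409) and with normexp as repaired (-0.41, adjusted p = 0.07). Normexp is another way to subtract background, and as repaired it replaces a few extreme local background values. The stimulated difference of -0.45 ± 0.20 missed the threshold (adjusted p = 0.109), but passed without memory resting replicate 1 (adjusted p = 0.0472) and with the mean of the probes (-0.58, adjusted p = 0.0302).

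The 3 Dusp16 probes disagreed on the memory response and on the differences at rest and after stimulation. The probe at 134729960 to 134730000 on chromosome 6 read -2.70, -3.20, -3.40 and -3.44 in naive resting, -0.90, -0.80, -0.87 and -1.04 in naive stimulated, -2.21, -2.70, -2.77 and -2.56 in memory resting and -2.65, -2.15, -1.98 and -2.23 in memory stimulated cells. It rose by 2.28 ± 0.18 in naive cells (4.87-fold, adjusted p = 1.87e-08), and its change in memory cells was 0.31 ± 0.18 (adjusted p = 0.135), so that the responses differed by -1.97 ± 0.25 (adjusted p = 8.19e-05). The naive stimulated arrays stood apart above all others on this probe. At rest it was higher in memory cells by 0.63 ± 0.18 (adjusted p = 0.0246), opposite to the representative probe. Its stimulated difference was -1.35 ± 0.18 (adjusted p = 8.61e-05, limma), without overlap. The probe at 134732307 to 134732366 on the same chromosome rose by 1.45 ± 0.29 in naive (adjusted p = 0.000426) and by 2.11 ± 0.29 in memory cells (adjusted p = 1.13e-05), with a difference of responses of 0.66 ± 0.42 (adjusted p = 0.324) and a resting difference of -0.58 ± 0.29 (adjusted p = 0.19). The stimulated difference of that probe was 0.07 ± 0.29 (adjusted p = 0.889, limma). Which transcripts each probe reads was not tested.

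**Figure D3:**
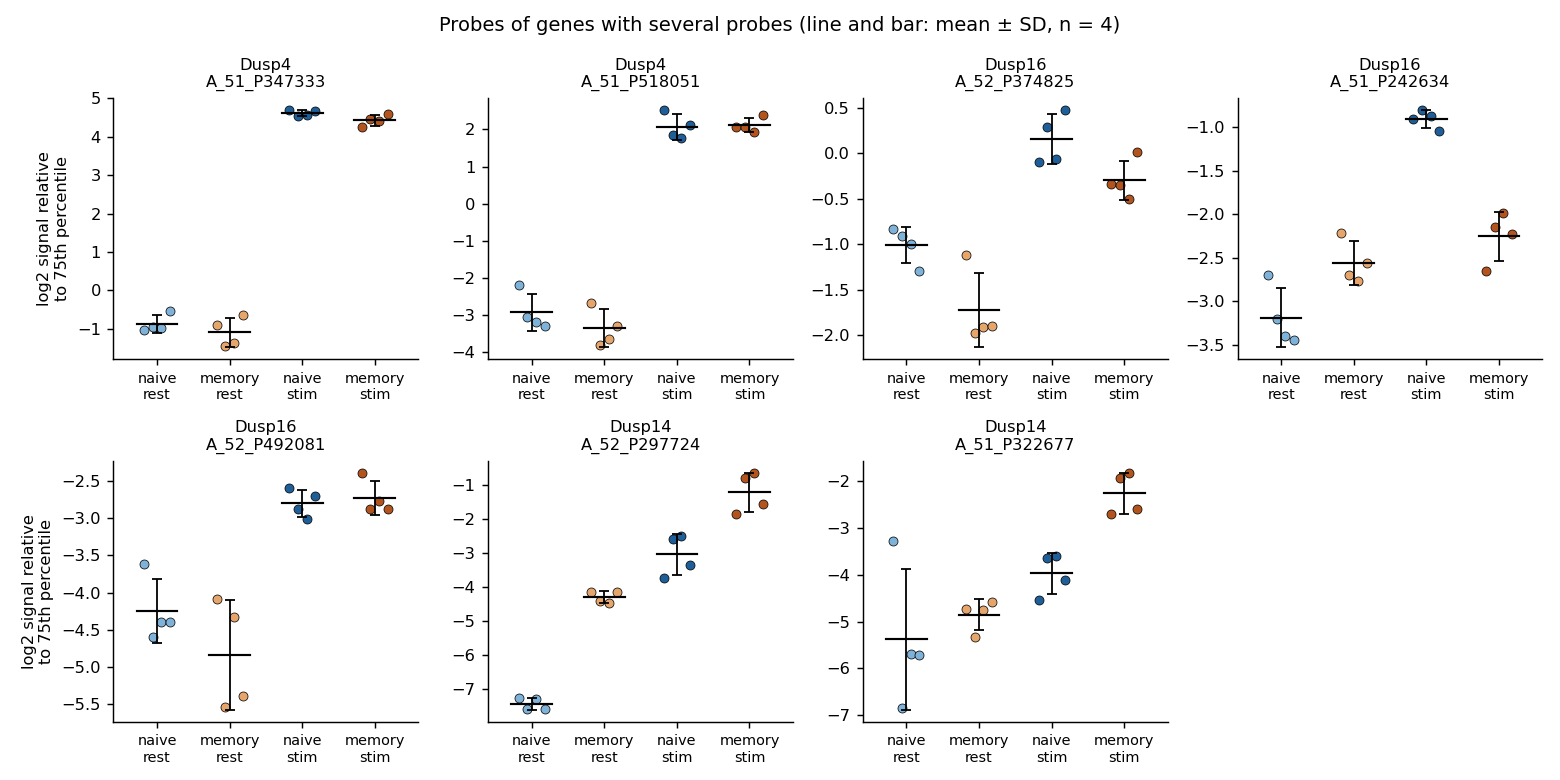
Levels of the 7 probes of the 3 genes with several probes, Dusp4, Dusp16 and Dusp14, as log2 signal (0 is the 75th percentile of the array), by group. Points are arrays, and line and bar are mean ± SD (n = 4). Both Dusp4 probes move alike, while 1 Dusp16 probe rises by 2.28 in naive cells and changes by 0.31 in memory cells.

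Dusp8, which acts on JNK and p38, is probed at 138508909 to 138508968 on chromosome 7 (mm7, minus strand). On naive arrays its level was -2.89, -3.07, -3.10 and -4.11 at rest and -2.69, -2.73, -2.88 and -3.22 after stimulation. On memory arrays it was -2.71, -3.86, -3.74 and -4.01 at rest and -2.91, -2.60, -2.75 and -2.36 after stimulation. Resting and stimulated arrays overlapped in both kinds of cell, in memory cells through resting replicate 1. The memory change was 0.92 ± 0.29 (1.89-fold, adjusted p = 0.00969) and the naive change 0.42 ± 0.29 (95% interval -0.20 to 1.03, adjusted p = 0.21). The naive change passed with normexp as repaired (0.31, adjusted p = 0.0352). The responses were not shown to differ (0.51 ± 0.41, adjusted p = 0.419).

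Dusp14, an atypical phosphatase known to bind the costimulatory receptor CD28, was the 1 member whose representative probe was higher in memory than in naive cells at rest. Its brighter probe lies at 84118020 to 84118079 on chromosome 11 (mm7, minus strand). At rest its level was -7.25, -7.58, -7.29 and -7.58 on naive arrays, none of them well above background, and -4.15, -4.42, -4.47 and -4.15 on memory arrays. After stimulation it was -3.74, -2.59, -2.50 and -3.34 in naive and -1.85, -0.79, -0.66 and -1.57 in memory cells. The 4 groups did not overlap and rose from naive resting to memory resting to naive stimulated to memory stimulated. The naive response was at least 6.11-fold and the resting difference at least 2.56-fold in favour of memory cells, each against the lowest signal that counts as well above background. The fitted changes, 4.38 ± 0.29 (adjusted p = 2.31e-09) and 3.13 ± 0.29 (adjusted p = 1.45e-06), use the dim naive resting signal itself. Their p-values do not test the bounds. The resting difference fell short of the threshold with normexp background correction as repaired (0.46 on the log2 scale, adjusted p = 0.0928). In memory cells Dusp14 rose by 3.08 ± 0.29 (8.46-fold, adjusted p = 1.26e-07), and it was higher in memory than in naive cells after stimulation by 1.83 ± 0.29 (3.55-fold, adjusted p = 0.000314).

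The difference of the Dusp14 responses has no settled sign. The fitted value was -1.30 ± 0.40 (adjusted p = 0.0339), but with the naive resting level at its bound it lies no higher than 0.47, and it was 0.97 in the authors' table (adjusted p = 0.0312) and 0.73 with normexp as repaired (adjusted p = 0.0731). The call was also lost without naive resting replicate 2 or 4, memory resting replicate 1 or 4, naive stimulated replicate 2 or 3 or memory stimulated replicate 1 or 4 (-1.25 to -1.09, adjusted p from 0.0554 to 0.0727). The second Dusp14 probe, at 84118697 to 84118756 on chromosome 11, was well above background on 1 of 4 naive resting arrays. It rose by 1.41 ± 0.53 in naive (adjusted p = 0.0284) and by 2.59 ± 0.53 in memory cells (adjusted p = 0.000475), and the stimulated difference was 1.71 ± 0.53 (adjusted p = 0.0335). Its resting difference was 0.53 ± 0.53 (95% interval -0.61 to 1.67, adjusted p = 0.547), with overlapping arrays. Its difference of responses was 1.18 ± 0.76 (adjusted p = 0.328).

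Between the kinds of cell at rest, 1 member was higher in memory cells (Dusp14) and 4 were lower (Dusp1, Dusp2, Dusp6 and Dusp16), as judged by the representative probes. The call of Dusp16 was opposite on another of its probes, and that of Dusp14 was not made by its second probe. Of all genes, 13.9% were higher and 7.66% lower (21.5% either way), a split that moved to 12.1% and 11.9% in the authors' table and to 9.21% and 9.76% with normexp as repaired. The median difference of the members was -0.58 against -0.01 over all genes. After stimulation 2 members were higher in memory cells (Dusp6 and Dusp14) and 2 lower (Dusp1 and Dusp10), against 10.1% and 14.1% of all genes (24.2% either way). The median was -0.19 against -0.05. These counts are by the representative probes, on which Dusp16 was not called. The Dusp16 probe that was opposite at rest differed by -1.35 ± 0.18 after stimulation (adjusted p = 8.61e-05, limma). The resting and stimulated differences share no arrays, but each shares its arrays with the responses.

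In the test of the difference of the responses, 2 members were called with the larger value in memory cells (Dusp2 and Dusp6) and 1 with the smaller (Dusp14, whose sign is not settled). Over all genes, 5.90% were called up and 14.1% down (20.0% either way), which became 9.11% and 10.7% in the authors' table, 7.18% and 10.5% with quantile normalization and 6.50% and 7.75% with normexp as repaired. The median of the members was 0.06, or 0.27 with Dusp14 at its bound, against 0 over all genes.

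**Figure D4:**
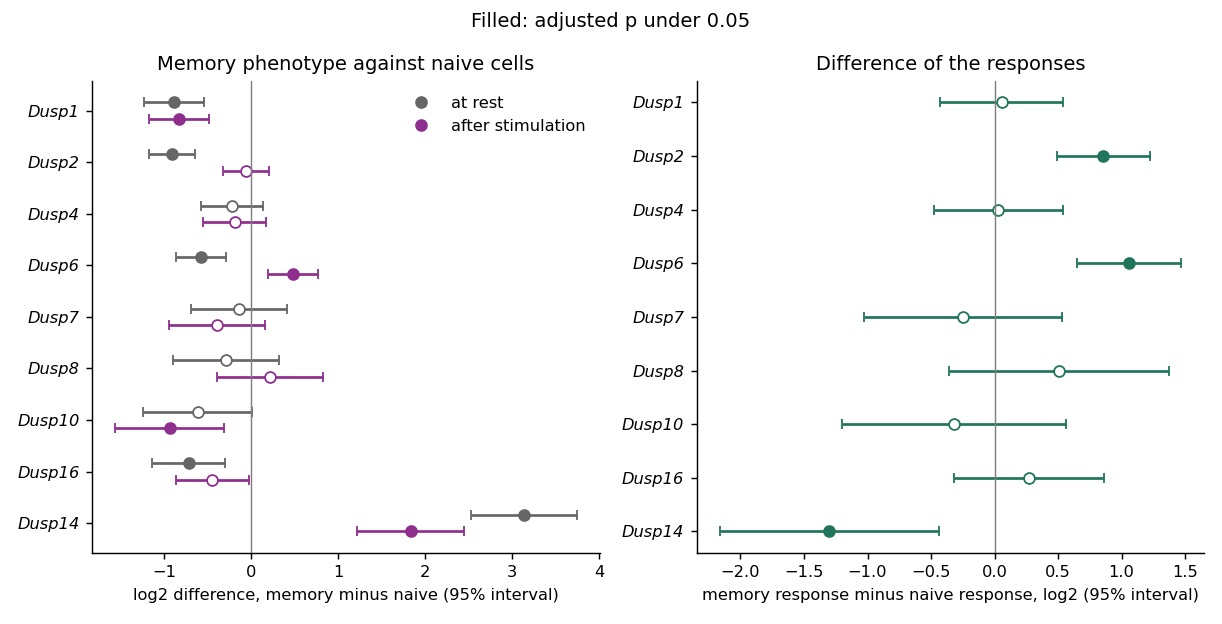
Left, log2 difference between memory phenotype and naive cells at rest and after stimulation for 9 Dusp genes. Right, memory response minus naive response. Bars are 95% intervals of the fit over 16 arrays and filled points passed an adjusted p of 0.05. Dusp6 lies at -0.58 at rest and 0.48 after stimulation, and Dusp1 at -0.89 and -0.83. Values of Dusp14 that involve naive resting cells rest on a level below background, and its point in the right panel has no settled sign.

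The order of the 4 group means differed between members, with neighbours compared in the same fit. For Dusp4 the 2 resting groups did not differ beyond their spread, nor did the 2 stimulated groups. For Dusp2 the order was memory resting, naive resting, memory stimulated and naive stimulated, and the last 2 did not differ beyond their spread. For Dusp6 every step was past the threshold, from memory resting through naive resting and naive stimulated to memory stimulated. For Dusp1 the one step past the threshold lay between memory stimulated and naive resting (0.71 ± 0.16, adjusted p = 0.00118). For Dusp7 and Dusp8 no step between neighbours passed.

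Promoter sequence is shown for 4 members that differ in their pattern: Dusp2 and Dusp6, with the larger response in memory cells, Dusp1, which differed by kind of cell, and Dusp10, which fell. Each run is the 250 bases before the annotated start, 5′ to 3′ on the strand of the gene, from RefSeq on GRCm38.p6, which is not the build of the probe positions. The positions are chr2:127335909-127336158 on the plus strand (Dusp2), chr10:99262981-99263230 on the plus strand (Dusp6), chr17:26508473-26508722 on the minus strand (Dusp1) and chr1:184034131-184034380 on the plus strand (Dusp10). Capitals mark a match to the EGR motif GCGNGGGCG or to the full cAMP response element TGACGTCA, searched on both strands.
Dusp2: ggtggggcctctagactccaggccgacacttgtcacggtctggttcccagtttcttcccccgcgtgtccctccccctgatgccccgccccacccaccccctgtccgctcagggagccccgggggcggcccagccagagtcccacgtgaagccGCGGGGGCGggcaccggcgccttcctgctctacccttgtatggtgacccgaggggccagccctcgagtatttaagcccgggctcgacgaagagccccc
Dusp6: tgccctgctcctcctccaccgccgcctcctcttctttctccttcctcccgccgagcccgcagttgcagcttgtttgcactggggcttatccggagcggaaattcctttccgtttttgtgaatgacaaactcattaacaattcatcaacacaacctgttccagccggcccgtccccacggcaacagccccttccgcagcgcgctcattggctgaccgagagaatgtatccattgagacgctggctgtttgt
Dusp1: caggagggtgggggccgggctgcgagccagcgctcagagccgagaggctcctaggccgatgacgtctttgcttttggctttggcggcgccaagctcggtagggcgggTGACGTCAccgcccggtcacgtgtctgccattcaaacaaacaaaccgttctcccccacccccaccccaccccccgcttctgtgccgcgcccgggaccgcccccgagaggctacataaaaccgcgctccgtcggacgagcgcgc
Dusp10: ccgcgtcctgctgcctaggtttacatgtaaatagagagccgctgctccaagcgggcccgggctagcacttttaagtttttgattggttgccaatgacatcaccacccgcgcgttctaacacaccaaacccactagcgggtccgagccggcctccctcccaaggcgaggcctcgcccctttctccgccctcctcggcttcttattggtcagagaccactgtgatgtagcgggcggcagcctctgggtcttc
The EGR letters stand 98 to 90 bases before the start of Dusp2 and the cAMP response element 143 to 136 bases before that of Dusp1, and the Dusp6 and Dusp10 windows hold neither. EGR letters were also found 138 to 130 bases before the start of Dusp16, and the element 107 to 100 and 63 to 56 bases before that of Dusp8. Of 32851 promoters of the same length, 4.7% held the EGR letters and 1.55% the full element. Members in the promoter table numbered 9, with Dusp5 and without Dusp4. None of the 9 windows held the AP-1 letters TGANTCA (6.75% of promoters), the ETS letters CCGGAAGT (2.88%), the NFAT core GGAAAA (20.4%) or the NF-kappaB motif (3.9%). The core letters TGACG, which the full element contains, was in 4 windows (17.8% of promoters) and the CArG box in that of Dusp5 alone (1.47%). A match describes these letters and is not a bound site.

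The rest of the pathway was followed through lists of genes around these phosphatases. The counts in each list stand against 38.3% up and 30.9% down over all genes in naive cells (69.2% either way). In memory cells the shares over all genes were 31.4% up and 39.1% down (70.5% either way). No test of a list as a whole was run. The 5 tested Sprouty and Spred genes, inhibitors that act upstream on Ras and Raf, rose in both responses of the fit. For Spry4 the rise was at least 3.18-fold in naive and only at least 1.12-fold in memory cells. Its memory stimulated probe was well above background on 2 of 4 arrays. Spry1 rose by 6.96 ± 0.16 in naive (adjusted p = 7.83e-14) and by 7.56 ± 0.16 in memory cells (adjusted p = 3.22e-14). The median of the list was 3.29 in naive and 2.35 in memory cells, or 2.55 and 1.90 with Spry4, which was below background at rest, at its bound. At rest 1 of the 5 was higher and 2 were lower in memory cells, against 13.9% and 7.66% of all genes. Spry2 was higher by 3.38 ± 0.24 (adjusted p = 1.13e-07), although its naive resting probe was well above background on 2 of 4 arrays. The lower ones were Spry1 (-0.85 ± 0.16, adjusted p = 0.00166, limma) and Spred1 (-0.44 ± 0.11, adjusted p = 0.0102, limma).

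Of the 10 tested dual-specificity phosphatases outside the members, 4 rose and 2 fell in naive cells, and 3 rose and 5 fell in memory cells. Dusp12 rose by 1.76 ± 0.11 in naive (adjusted p = 1.49e-09) and by 1.92 ± 0.11 in memory cells (adjusted p = 5.66e-10). Dusp19 changed by -2.80 ± 0.26 (adjusted p = 1.14e-07) and -2.51 ± 0.26 (adjusted p = 3.93e-07). Their medians were 0.26 and -0.40. Of the 3 tyrosine phosphatases that bind MAP kinases through a kinase-interaction motif, Ptpn7 rose in both (1.5 ± 0.11, adjusted p = 7.55e-09, and 0.75 ± 0.11, adjusted p = 1.72e-05), and Ptprr fell in both (-1.77 ± 0.29, adjusted p = 5.45e-05, and -2.06 ± 0.29, adjusted p = 1.18e-05). Ptpn5 rose in naive cells by 0.61 ± 0.18 (adjusted p = 0.00704) and changed by -0.48 ± 0.18 in memory cells (adjusted p = 0.0261).

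Among the substrates, 3 of 9 tested MAP kinases rose and 4 fell in naive cells, and 1 rose and 4 fell in memory cells. Mapk3, which encodes an ERK, changed by -2.97 ± 0.24 in naive (adjusted p = 2.98e-08) and by -3.00 ± 0.24 in memory cells (adjusted p = 2.64e-08). Of 7 MAP kinase kinases, 3 rose and 2 fell in naive and 4 rose and 2 fell in memory cells. Map2k3, an activator of p38, rose by 3.88 ± 0.13 (adjusted p = 2.09e-12) and 3.30 ± 0.13 (adjusted p = 1.12e-11). Map2k6, also an activator of p38, was at least 5.82-fold lower in naive and at least 8.21-fold lower in memory cells, with no stimulated array well above background. The p-values of its fitted changes (adjusted p = 1.13e-07 and 5.39e-10) do not test these bounds.

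Upstream, 4 of 12 Raf and MAP3 kinase genes rose and 5 fell in naive cells, against 4 and 6 in memory cells. Map3k8, which activates the ERK branch, rose by 3.68 ± 0.24 (adjusted p = 2.1e-09) and 3.26 ± 0.24 (adjusted p = 7.98e-09). Of 9 Ras proteins and exchange factors, 2 rose and 4 fell in naive and 4 rose and 4 fell in memory cells. Rasgrp1, an exchange factor that couples diacylglycerol to Ras, was lower in memory cells at rest by 1.18 ± 0.13 (adjusted p = 1.28e-05) and after stimulation by 0.59 ± 0.13 (adjusted p = 0.00488). Of 10 kinases downstream of MAP kinases, 5 rose and 2 fell in naive and 5 rose and 3 fell in memory cells, with Rps6ka3 at 1.47 ± 0.15 (adjusted p = 3.99e-07) and 1.57 ± 0.15 (adjusted p = 1.83e-07).

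Of 23 tested transcription factor genes that MAP kinases act on, 16 rose and 2 fell in naive cells and 18 rose and 2 fell in memory cells, with medians of 1.35 and 2.35. Fosl1 rose by 6.38 ± 0.31 (adjusted p = 8.94e-11) and 7.78 ± 0.31 (adjusted p = 1.14e-11). At rest, 1 of the 23 was higher and 12 were lower in memory cells, against 13.9% and 7.66% of all genes. Among the lower were Fos (-2.56 ± 0.19, adjusted p = 1.26e-07), Nr4a1 (-1.99 ± 0.12, adjusted p = 2.63e-08) and Egr3 (-1.89 ± 0.26, adjusted p = 8.97e-05). In stimulated cells, 3 of the 23 were higher and 4 lower in memory cells, against 10.1% and 14.1% of all genes. The median difference between the kinds of cell was -0.63 at rest and 0.05 after stimulation. The memory response was the larger for 13 of the 23 and the smaller for 0, against 5.90% and 14.1% of all genes. Fos was at 2.44 ± 0.26 (adjusted p = 1.41e-05), Egr2 at 2.22 ± 0.25 (adjusted p = 1.92e-05) and Egr4 at 2.10 ± 0.26 (adjusted p = 5.85e-05). These contrasts share arrays with those of Dusp2 and Dusp6, whose resting differences were -0.91 and -0.58 and whose differences of response were 0.85 and 1.06.

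**Figure D5:**
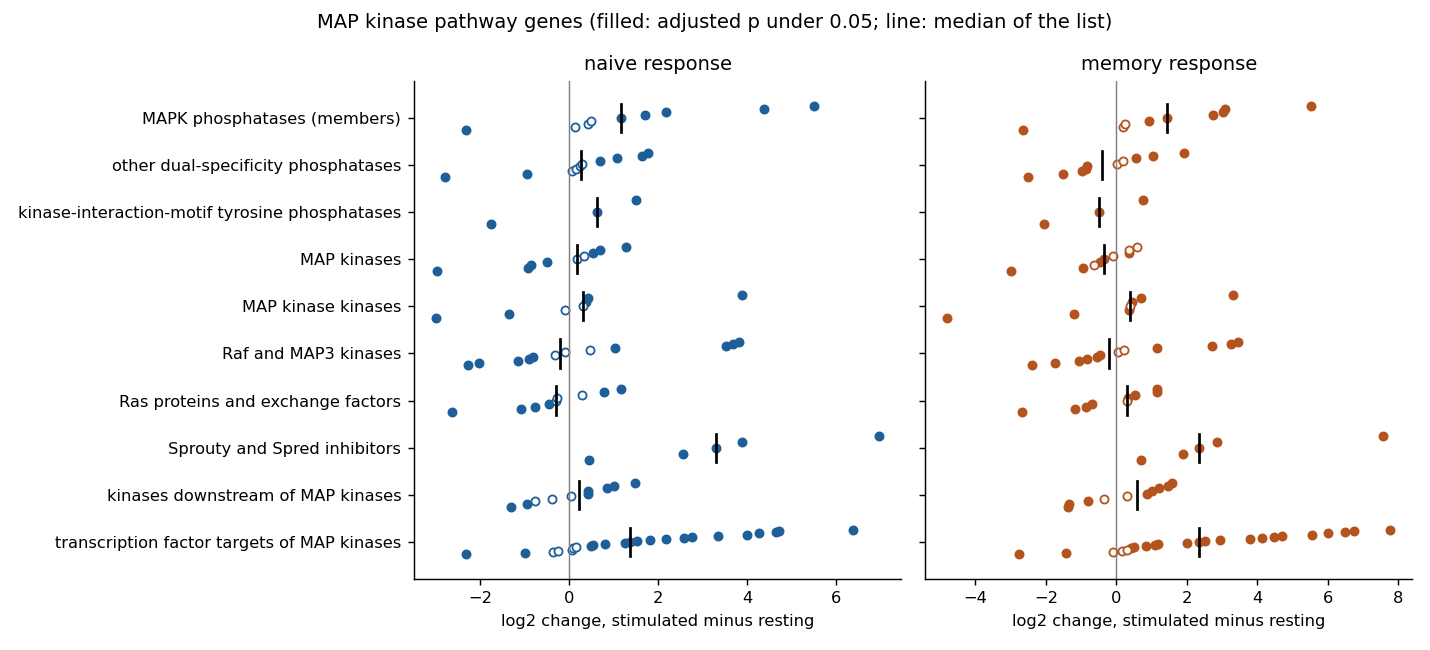
Log2 change between stimulated and resting cells of each tested gene in 10 groups of the MAP kinase pathway, in naive (left) and memory phenotype cells (right). Filled points passed an adjusted p of 0.05 and vertical lines are medians of fitted values. Medians of the members lie at 1.16 and 1.43, those of the Sprouty and Spred genes at 3.29 and 2.35 and those of the transcription factors at 1.35 and 2.35. Fitted values of genes below background in 1 group, such as Spry4, are no bound.

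Likeness to other genes is given as Pearson's r over the 16 arrays, as a description, since the arrays share groups and slides. The pattern of Dusp4 was most like those of Snrpa1 (0.999), Mrto4 (0.998) and Eif4e (0.9976), and that of Dusp2 most like those of Qtrt1 (0.9983), Tagap1 (0.997) and AK089360 (0.9962). Dusp6 was nearest to Spag4 (0.9946), Polr2c (0.9935) and Lonp1 (0.992), and Dusp10 to Abcg1 (0.9869), Chd2 (0.9858) and Acap2 (0.9852). For Dusp14 the nearest were BG921888 (0.987), Cobll1 (0.9863) and Hlf (0.9757), and for Dusp16 AK036256 (0.9716), Bambi (0.968) and A130072N09Rik (0.967). Dusp1 was nearest to Gpr83 (0.9273).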

How the data were processed

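RNA of 4 groups of 4 arrays was hybridised in 1 colour to 60-base probes. The scans were extracted by the authors, per the file headers, with Agilent Feature Extraction 9.5.3.1, which gives a background-corrected spot intensity on a linear scale, not normalized between arrays, beside the mean and local background intensity. The authors' deposited table of 33797 rows also holds linear intensity; how it was made is not stated in the labels. Its median was 149.0 on every array, it correlated with log2 processed signal at 0.9754 or more, and changes in it are smaller (slope 0.739 to 0.818). It served as an alternative.

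Processed signal was taken to log2 and centred on each array's 75th percentile over 41174 non-control probes. Outlier spots (59 to 116 of 43379 per array, 0 on member probes) were left out. A probe was tested where well above background on at least 3 arrays of 1 group (27348 probes). The probe with the highest mean stood for a gene (18404 genes). Symbols came from the reference table for 32718 probes; 8456 kept the file's name. All arrays entered 1 linear model of 4 group means (limma 3.58.1, lmFit and eBayes, R 4.3.3) and tested on simulated data. Levels are means over n = 4 arrays, SE comes from the fit, and a bound ("at least") sets the bright group against, per array, the higher of the dim probe's signal and the lowest signal well above background. Which animals or pools lie behind a replicate is not stated in the labels, so p-values measure the spread between these samples. Other software was matplotlib 3.10.9, pandas 2.3.3, numpy 2.4.6, version 1.17.8 of data.table and Python 3.11.15.

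The members, gene lists, marker lists and tests were chosen with earlier results of these data known. All members are named. Of each pathway list, those named come from the 3 largest called changes per comparison. Genes most like a member were ranked by r over the tested genes, called or not. They are given in part for Dusp1 and not at all for Dusp7 and Dusp8. 9 other settings were tried and each of 16 arrays was left out in turn. Exon, intron and UTR positions of probes were not used here. The number of arrays limits the precision.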

Additional observations from a re-analysis of the deposited data

Results flagged for a closer look

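Within groups of 4 arrays, 52 groups of member probes were examined for an array far from the other 3 by Dixon's test, and 5 were found, where chance alone gives about 1 in 20. Dusp4 in naive resting replicate 4 was -0.53, with the nearest array at -0.95. Dusp7 in naive resting replicate 4 was 1.76 (nearest 2.75), and in memory resting replicate 4 it was 1.70 (nearest 2.56). Dusp8 in naive resting replicate 4 was -4.11 (nearest -3.10). Dusp16 in memory resting replicate 1 was -1.12 (nearest -1.90).

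The memory and naive responses differed in the test of the difference itself for Dusp2 (0.85 on the log2 scale), Dusp6 (1.06), Dusp14 (-1.30, with no settled sign) and the Dusp16 probe at 134729960 to 134730000 on chromosome 6 (-1.97).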

How the results depend on the processing

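The 9 other settings kept the count of members called within 1.5 times of the reported one except for normexp background correction, which gave 1 member in the resting difference, 2 in the stimulated difference and 0 in the difference of responses, and normexp with repaired background, which gave 3 in the resting difference. On 3 arrays normexp correlated with the reported values at 0.785 to 0.883 and a few spots had local background far above their signal; the repaired setting, added after seeing the data, replaced 5 to 15 such spots per array. At an adjusted p of 0.05, limma after unrepaired normexp called 520 of 18404 genes in the resting difference, 452 in the stimulated difference and 213 in the difference of responses. The reported setting called 3963, 4456 and 3688 genes in these. With repaired background, 3491 genes were called in the resting difference. Unrepaired normexp moved the share of calls that were up from 44.5% to 68.4% in the memory response and from 64.4% to 80.2% in the resting difference. That share went from 41.7% to 57.3% in the stimulated difference and from 29.4% to 14.6% in the difference of responses. With quantile normalization the median change of all genes moved from 0.15 to 0.01 in the naive response. Unrepaired normexp also ended the resting calls of Dusp2 (-0.88, adjusted p = 0.199) and Dusp6 (-0.57, adjusted p = 0.392) and their differences of response (0.39, adjusted p = 0.674, and 0.63, adjusted p = 0.667), the stimulated calls of Dusp6 (0.06, adjusted p = 0.861) and Dusp10 (-0.61, adjusted p = 0.298), and the resting calls of Dusp14 (0.46, adjusted p = 0.689) and Dusp16 (-0.41, adjusted p = 0.496). Leaving out 1 array gave 6 to 6 members in the naive response, 7 to 7 in the memory response, 4 to 5 in the resting difference, 2 to 5 in the stimulated difference and 2 to 3 in the difference of responses.

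Directions that turned were those of values near 0 and of Dusp14. The naive response of Dusp1 was 0 with normexp, -0.02 with quantile normalization and -0.10 in the authors' table. The memory response of Dusp7 was -0.21 with normexp, -0.13 with quantile normalization and -0.12 in the authors' table, where its resting difference was 0.07. The difference of responses was -0.61 (normexp), -0.20 (repaired) and -0.17 (authors' table) for Dusp4, 0.02 (normexp) for Dusp10, -0.35 (mean of probes) for Dusp16, and 0.83 (normexp), 0.73 (repaired) and 0.97 (authors' table) for Dusp14. Without 1 array, the difference of responses ran from -0.09 to 0.16 for Dusp1, from -0.09 to 0.18 for Dusp4, and from -0.48 to 0.01 for Dusp7, the resting difference of Dusp7 from -0.40 to 0.09 and the stimulated difference of Dusp2 from -0.13 to 0.01. The cause of these changes was not tested.

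With the replicate number as a block, 7 members were called in each response, 6 in the resting difference, 4 in the stimulated difference and 3 in the difference of responses. Dusp7 in the naive response (0.49, adjusted p = 0.00706) and Dusp10 in the resting difference (-0.61, adjusted p = 0.0408) were added. Calls over all 18404 genes rose as well, from 12737 to 13379 in the naive response and from 12966 to 13614 in the memory response. They rose from 3963 to 5398 in the resting difference, from 4456 to 5728 in the stimulated difference and from 3688 to 4749 in the difference of responses. Deviations of same-numbered arrays correlated at -0.211 to 0.585 (median 0.161, 16 of 24 pairs over 0.1) and those of differently numbered arrays at -0.375 to 0.337 (median -0.072, 13 of 72 over 0.1). Of 16 arrays, 13 correlated best with their own number, a hint from the data that numbers pair them. The procedure was carried out on 4 occasions, but the labels do not tie a number to an occasion. Since 8 of the 24 pairs were also not over 0.1, the fit without the block is the one reported. Slide as a block was not run, since each slide holds 1 group. Signal over background limits both Dusp14 probes.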
